A study of Mus musculus with 32 samples.

Results

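The genes described here are 41 targets of PPARalpha and enzymes of fatty acid oxidation, taken by symbol from a list that covers the transcription factor itself, fatty acid activation and the carnitine shuttle, mitochondrial and peroxisomal beta-oxidation, omega-oxidation, acyl-CoA thioesterases, and a group of hormone, ketone and fuel-switch genes. All 41 were found among the 55487 genes counted, and all 41 were among the 14902 genes tested after the filter on low counts. RNA came from whole mouse liver of 2 genotypes, wild type (WT) and FAAH S268D. The latter names a changed residue in FAAH, a hydrolase of fatty acid amides whose substrates include N-acyl taurines. The mice had been fed for 28 weeks on a diet given in the series text as HFFC, with or without ARA, which the sample labels call NASH and NASH-AA. The 4 groups were therefore WT NASH, WT NASH-AA, FAAH S268D NASH and FAAH S268D NASH-AA, with 8 libraries each, and no group was fed a control chow. Whether each library is a different animal is not stated in the labels, and p-values here measure the spread between libraries only. The substitution cannot be read from counts per gene, so expression offers no check of the genotype labels.

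PPARalpha is a nuclear receptor that binds fatty acids and their derivatives and, with its partner RXR, switches on genes that burn fat in the fasted liver. Fatty acids are bound by FABP1, joined to coenzyme A by acyl-CoA synthetases such as ACSL1, carried into mitochondria by CPT1A, SLC25A20 and CPT2, and shortened there by a cycle of dehydrogenases, a hydratase and a thiolase, with electrons passed on through ETFA, ETFB and ETFDH. Very long chains are shortened first in peroxisomes, CYP4A enzymes oxidise the far end of the chain, and acyl-CoA thioesterases release free fatty acids again. FGF21 is a hormone that the liver secretes in fasting and under cellular stress, and PDK4 turns glucose carbon away from the mitochondrion.

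Library depth ran from 3851397 counts in FAAH S268D NASH replicate 1 to 34370032, the median being 22896454 and the next lowest 14743007. Levels are given as CPM, counts scaled to a common library size with normalisation factors. Hepatocyte markers (19 genes) summed to between 67520 and 122600 CPM in the 32 libraries, while 4 kidney markers reached at most 0.139 CPM. Summed macrophage markers (18 genes) ran from 642 to 1775 CPM in WT NASH, 720.8 to 976.5 in WT NASH-AA, 457 to 914 in FAAH S268D NASH and 435 to 752 in FAAH S268D NASH-AA. In FAAH S268D NASH against WT NASH, 13 of the 18 macrophage markers were lower and 0 higher, and 4 of 19 tested hepatocyte markers were higher and 1 lower. In whole tissue, fewer cells of a type and less RNA per cell cannot be told apart.

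Before the levels, 3 upstream stretches are shown, because they belong to the member that moved most (Fgf21), to the single member whose promoter matched a loose PPAR element (Fabp1) and to a pair of neighbouring members transcribed away from each other (Hadha and Hadhb). They are RefSeq promoter sequence on build GRCm38.p6, written 5′ to 3′, with positions counted from the annotated start. A promoter was in the table for 33 of the 41 members, in 36 windows, since some genes have more than 1 start.

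Fgf21, chr7:45615491-45615740, minus strand: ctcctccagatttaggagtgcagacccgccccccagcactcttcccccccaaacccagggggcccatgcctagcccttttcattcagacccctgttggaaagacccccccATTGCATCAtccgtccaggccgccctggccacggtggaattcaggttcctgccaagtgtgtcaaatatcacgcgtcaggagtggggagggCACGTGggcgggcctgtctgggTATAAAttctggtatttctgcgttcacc
Fabp1, chr6:71199727-71199826, plus strand: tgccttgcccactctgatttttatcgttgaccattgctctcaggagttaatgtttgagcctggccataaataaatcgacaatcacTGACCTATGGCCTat
Hadha to Hadhb interval, chr5:30155163-30155247, plus strand: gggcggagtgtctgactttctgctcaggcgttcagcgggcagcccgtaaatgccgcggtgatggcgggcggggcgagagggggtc

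In the Fgf21 stretch the capitals mark, from left to right, the reverse of TGATGNAAT, a composite element bound by ATF4 and C/EBP factors, at -140 to -132, the E box CACGTG at -50 to -45 and the TATA box TATAAA at -28 to -23. The first of these was present, on either strand, in 0.96% of 32851 mouse promoter windows of the same length and in 1 of the 36 member windows. The PPAR element was searched, on both strands, as the site AGGTCA repeated in the same direction with 1 base between the copies, the spacing that PPAR and RXR bind. In its relaxed form each copy is AGGNCA, with any base at N. The capitals in the Fabp1 stretch mark a match to the relaxed form, on the opposite strand at -67 to -55, which 0.38% of all windows held. The strict form was in 0 member windows and 0.04% of all, and a single AGGTCA, which the strict form contains, was in 19.4% of member windows and 16.3% of all. The stretch between the Hadha and Hadhb gene models held none of the motifs searched, so it has no capitals. Such matches describe letters in a short window and say nothing of binding.

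The members differed widely in abundance. Per kilobase of exon, the highest median over 32 libraries was that of Fabp1, the liver fatty acid binding protein, at 5222 CPM per kb, followed by the peroxisomal thiolase Acaa1b at 1207 and the mitochondrial thiolase Acaa2 at 439. At the other end were Fgf21 at 4.53, Pdk4 at 2.61 and Cyp4a31 at 2.04 CPM per kb. Ppara itself stood at 40.1 CPM per kb, rank 28 of 41.

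Few members passed the test in any comparison. NASH-AA against NASH in WT livers gave 0 of 41 members past an adjusted p of 0.05 (limma-voom, Benjamini-Hochberg over all genes tested), where 4.41% of all tested genes passed (1.44% higher and 2.97% lower), and 5 members had an unadjusted p under 0.05. The same diet comparison in FAAH S268D livers gave 0 of 41, with 0.0939% of all genes passing (0.0268% higher and 0.0671% lower), and 5 with an unadjusted p under 0.05. FAAH S268D against WT on NASH gave 1 of 41, Acaa2, which was higher, against 9.19% of all genes (2.89% higher and 6.3% lower), and 11 had an unadjusted p under 0.05. On NASH-AA the genotype comparison gave 0 of 41 against 0.658% (0.349% higher and 0.309% lower), with 3 at an unadjusted p under 0.05. The interaction, which asks whether the diet difference was unequal in the 2 genotypes, gave 0 members and 0% of genes, with 1 member (Fabp1) at an unadjusted p under 0.05.

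Averaging over the other factor raised these counts a little. The diet difference averaged over genotypes was past the threshold for 2 members, Fgf21 and Hadhb, both lower on NASH-AA, against 10.9% of all genes (4.62% higher and 6.28% lower). Genotype averaged over diets gave 5 members, against 17.2% of all genes (6.9% higher and 10.3% lower): Acsl1, Acaa2 and Etfb were higher in FAAH S268D, and Fgf21 and Vnn1 were lower. With library totals as the scaling this split of 3 higher and 2 lower became 0 higher and 5 lower. With all 32 libraries in the fit and the settings of the main test, no comparison gave the members a share of calls above that of all genes. Some fits without 1 library and some other settings, given below, did. Without the 4 libraries numbered replicate 1, 0 members passed in the averaged genotype comparison, against 14.7% of all genes. Comparisons that share a group also share its libraries, so their values are set side by side without an overlap between them.

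**Figure D1:**
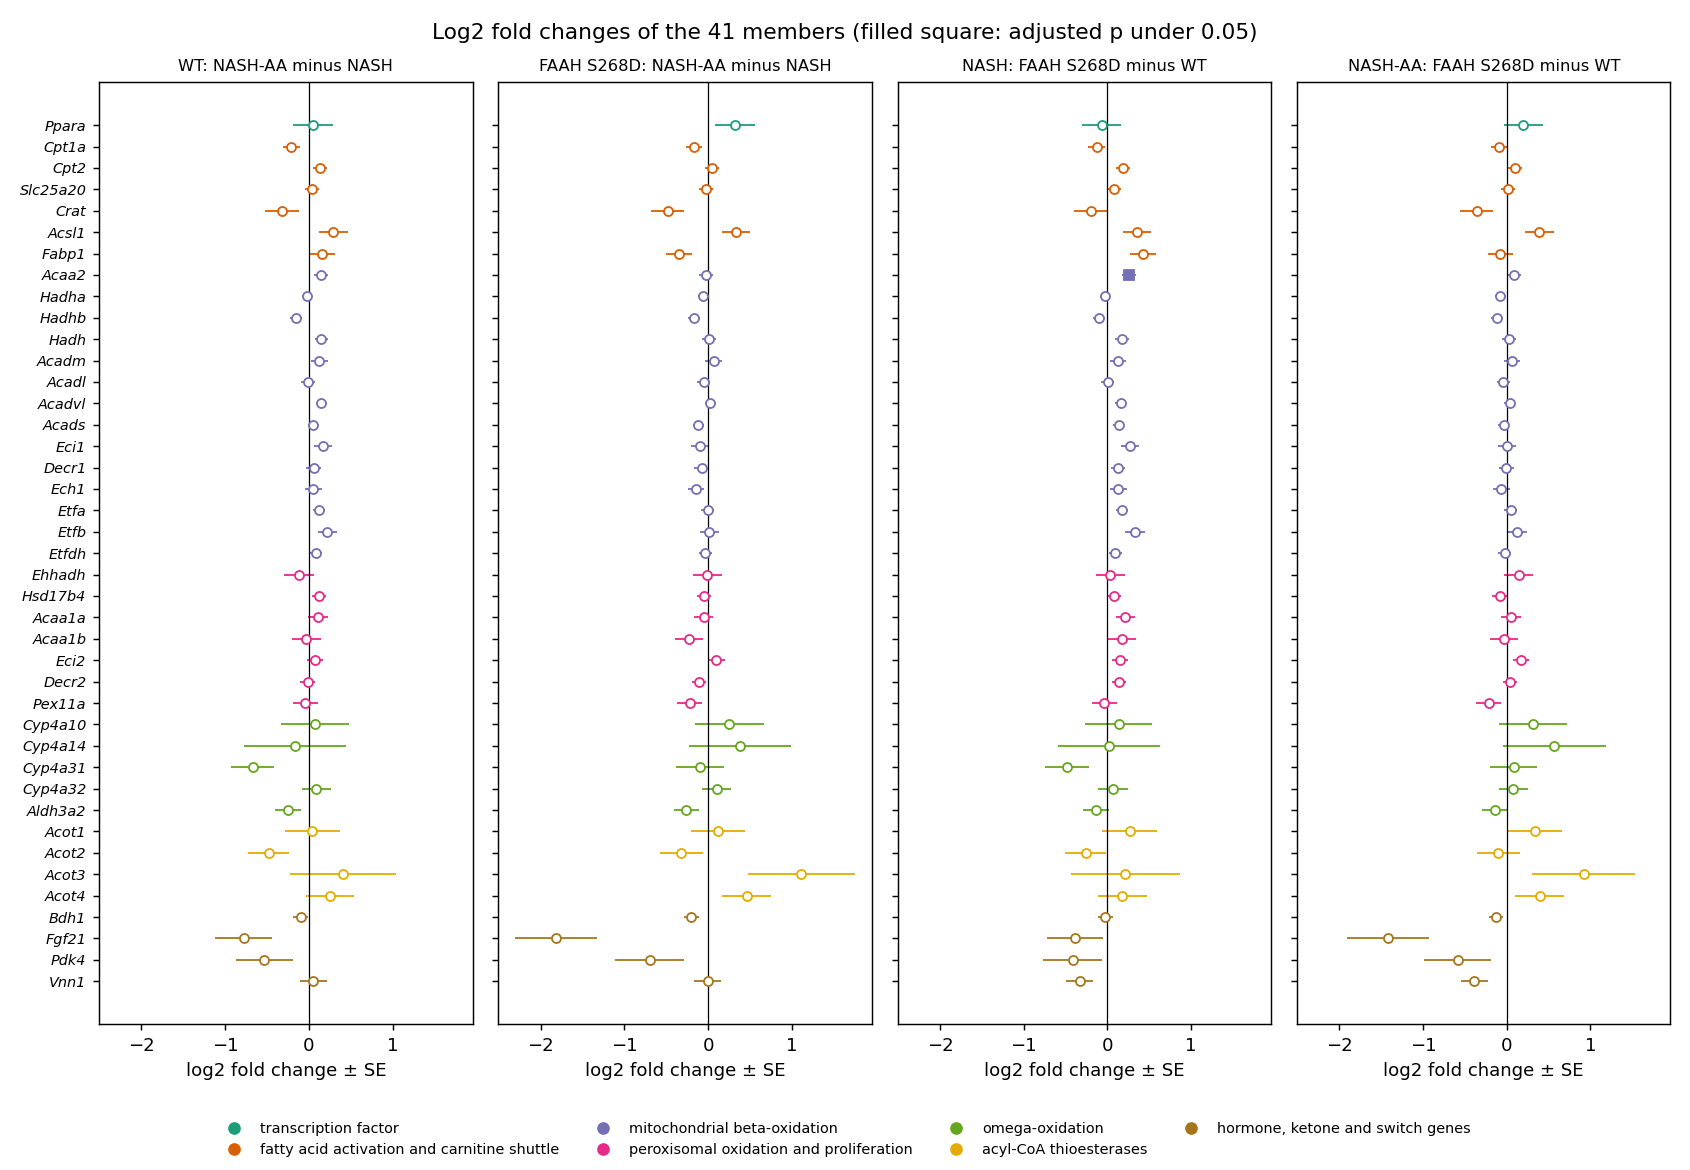
Log2 fold change with its standard error (horizontal axis) for each of the 41 members (rows, coloured by role) in the 4 comparisons of 2 groups with 8 libraries each. A filled square marks an adjusted p under 0.05, which only Acaa2 in the NASH genotype comparison reached. Most mitochondrial members sit within 0.3 of 0, while Fgf21, Pdk4, Cyp4a14 and Acot3 lie farther out with wide errors.

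Medians over the members were small. The median log2 fold change of the 41 was 0.05 for diet in WT, -0.05 for diet in FAAH S268D, 0.12 for genotype on NASH and 0.02 for genotype on NASH-AA, against 0.01, 0.00, 0.00 and 0.00 over all genes tested. The sign of some medians turned with the range of library numbers the labels give. The WT diet median was 0.19 among numbers 1 to 16 and -0.10 among 17 to 32, and the genotype median on NASH-AA was -0.12 and 0.07. On NASH, 28 of the 41 members had a positive genotype value and 13 a negative one. Hepatocyte markers had a median of 0.33 in that comparison and macrophage markers -0.91, and the part of either in the members' values was not tested. Scaling by library totals alone moved the median of all genes by -0.14 there, and the members' median then stood at -0.03, that is, above all genes by a similar margin.

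Fgf21 had the largest fitted difference of any member in both diet comparisons and in the genotype comparison on NASH-AA. Its WT NASH libraries ran from 2.78 to 9.41 CPM with a median of 6.42, and its WT NASH-AA libraries from 1.57 to 10.4 with a median of 4.26. FAAH S268D NASH ran from 1.27 to 8.80 with a median of 4.87, and FAAH S268D NASH-AA from 0.529 to 2.65 with a median of 1.495. All 8 FAAH S268D NASH-AA libraries lay below the median of WT NASH-AA and below that of FAAH S268D NASH, although the ranges of the groups overlapped. Group means were 6.64 ± 2.16, 4.57 ± 2.98, 5.30 ± 2.45 and 1.42 ± 0.691 CPM in the same order (SD, n = 8 each).

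Averaged over genotypes, Fgf21 was lower on NASH-AA by a log2 fold change of -1.30 ± 0.30 (SE; limma-voom adjusted p = 0.00736). Within WT the value was -0.78 ± 0.34 (adjusted p = 0.153) and within FAAH S268D -1.82 ± 0.49 (adjusted p = 0.118). The difference between these, the interaction, was -1.04 ± 0.59 (adjusted p = 0.906), so an unequal diet difference was not shown. By genotype, averaged over diets, Fgf21 was lower in FAAH S268D by -0.90 ± 0.30 (adjusted p = 0.0339), with -0.38 ± 0.34 (adjusted p = 0.509) on NASH and -1.42 ± 0.49 (adjusted p = 0.169) on NASH-AA. The averaged diet difference stayed past the threshold in each of the 32 fits that left out 1 library (adjusted p 0.000761 to 0.0149). Among library numbers 1 to 16 the averaged genotype difference was -1.67 (adjusted p = 0.0213), and among 17 to 32 it was -0.25 (adjusted p = 0.766). It was lost without any 1 of 7 libraries, namely WT NASH replicate 2, WT NASH-AA replicates 2 and 6, FAAH S268D NASH replicate 2 and FAAH S268D NASH-AA replicates 1, 2 and 4 (adjusted p up to 0.0594), and without the 4 libraries numbered replicate 1 (adjusted p = 0.0866).

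FAAH S268D NASH replicate 3 held the lowest Fgf21 value of its group, 1.27 CPM, and the lowest value of its group for 29 of the 41 members. Without it, the diet difference of Fgf21 within FAAH S268D was -2.10 (limma-voom adjusted p = 0.00784), and that of Crat, the carnitine acetyltransferase, was -0.70 (adjusted p = 0.0133), so 2 members then passed, where 2.45% of all genes did. Without the same library the averaged diet comparison gave 8 members, all lower on NASH-AA, against 15.9% of all genes. These were Fgf21, Hadhb, Crat, Acot2, Pdk4, Aldh3a2, Cpt1a and Bdh1, the last a ketone body enzyme, with log2 fold changes between -1.44 and -0.18.

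Pdk4, the pyruvate dehydrogenase kinase, showed negative values in each comparison without passing the test. It ran from 6.66 to 30.3 CPM in WT NASH (median 12.2) and from 4.25 to 15.04 in WT NASH-AA (median 9.08). FAAH S268D NASH held 2.25 to 22.96 (median 9.76) and FAAH S268D NASH-AA 2.24 to 13.6 (median 5.88). The groups overlapped throughout. Its averaged diet value was -0.61 ± 0.27 (limma-voom adjusted p = 0.125) and its averaged genotype value -0.50.

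Vnn1, a pantetheinase with a strong response to PPARalpha agonists, differed by genotype. In WT it ran from 96.7 to 160.7 CPM on NASH (median 113.7) and from 89.7 to 146 on NASH-AA (median 122). In FAAH S268D it ran from 51.8 to 127 on NASH (median 103) and from 61.0 to 124 on NASH-AA (median 97.0). On NASH-AA, 7 of 8 WT libraries lay above the FAAH S268D median and 1 of 8 FAAH S268D libraries above the WT median. The averaged genotype difference was -0.36 ± 0.11 (SE; limma-voom adjusted p = 0.0279), and the averaged diet value was 0.03. Among fits that left out 1 library, the call was lost only without FAAH S268D NASH replicate 2 (adjusted p = 0.0509). It was also lost with no filter (limma-voom adjusted p = 0.0503) and with sample quality weights (0.0576). Leaving out the 4 libraries numbered replicate 1 lost it too (0.0566). Among library numbers 17 to 32 alone, the genotype value was -0.07 (adjusted p = 0.836), and among numbers 1 to 16 -0.62 (adjusted p = 0.0346).

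**Figure D2:**
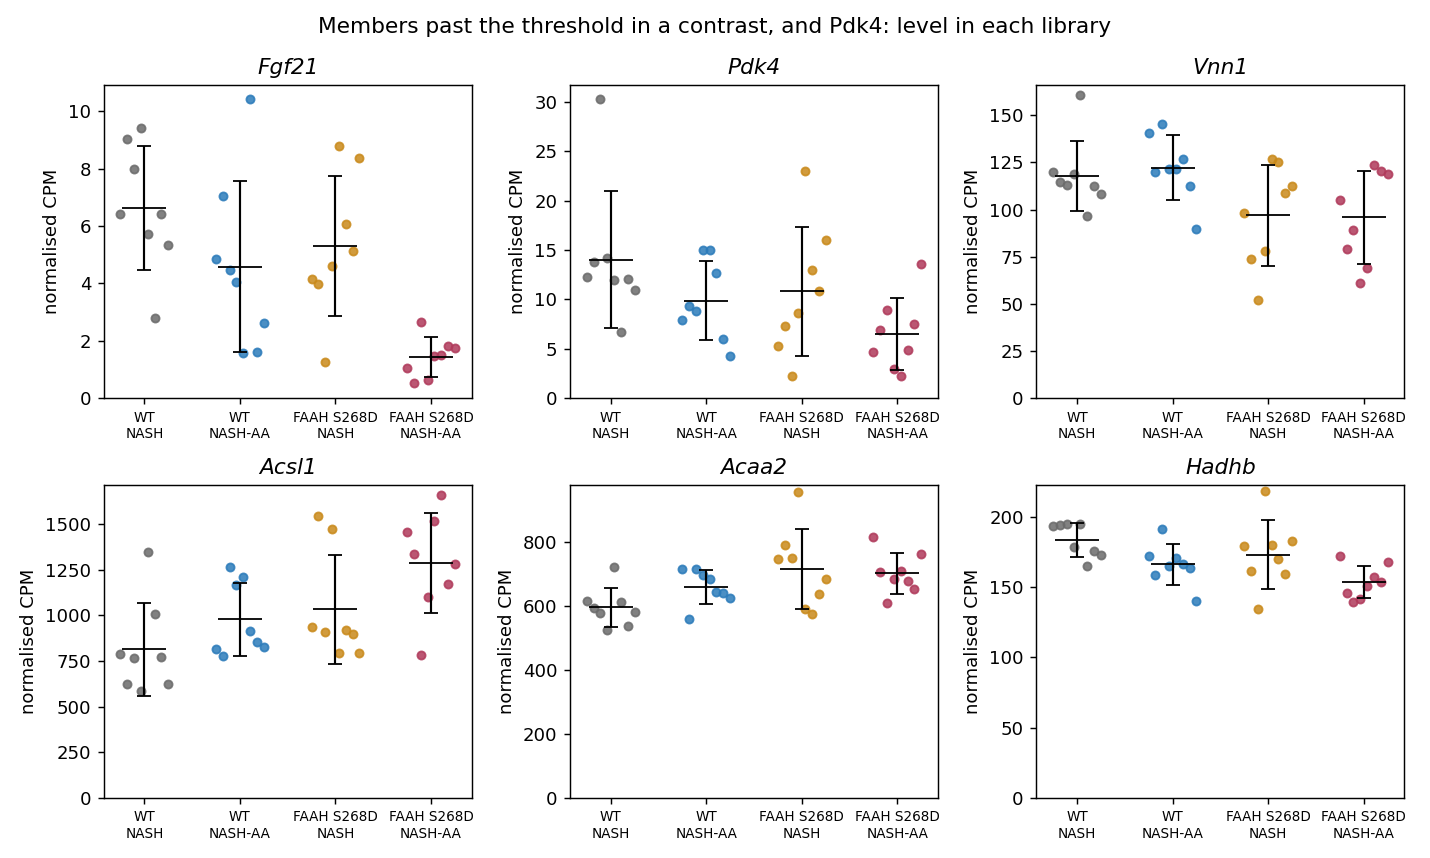
Normalised CPM (vertical axes, each from 0) of Fgf21, Pdk4, Vnn1, Acsl1, Acaa2 and Hadhb in the 32 libraries, with 1 point per library, the group mean as a bar and the standard deviation as whiskers (8 libraries a group). The FAAH S268D NASH-AA points for Fgf21 all sit at or below 2.65 CPM, while the other 3 groups reach at least 8.80.

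The last gene of the hormone, ketone and switch group, Bdh1, had an averaged diet value of -0.15 ± 0.06 (limma-voom adjusted p = 0.12). All 4 genes of that group (Fgf21, Pdk4, Vnn1 and Bdh1) had negative genotype values on both diets, with medians of -0.36 and -0.49.

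Ppara, the receptor gene, did not pass in any comparison. In WT it ran from 100 to 188 CPM on NASH (median 138) and from 79.8 to 192 on NASH-AA (median 151). In FAAH S268D it ran from 36.2 to 206 on NASH (median 178) and from 132 to 223 on NASH-AA (median 167). The lowest library of each of the 4 groups was the one numbered replicate 1, which in FAAH S268D NASH is also the shallowest library. Fold changes in the 4 comparisons of 2 groups lay between -0.07 and 0.32 (limma-voom, none past the threshold).

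Around the receptor, the list of 19 PPAR receptors, RXR partners and coregulators (Ppara included) had 0 of 19 past the threshold in each comparison of 2 groups. Averaged over genotypes, 1 of 19 was higher on NASH-AA and 0 lower, where 4.62% of all genes were higher and 6.28% lower. The higher one was Rxra, the main RXR partner in liver, at 0.21 ± 0.07 (limma-voom adjusted p = 0.0416). Positive values were held by 15 of 19. The coactivator gene Ppargc1a had a diet value of 0.29 ± 0.15 in FAAH S268D (adjusted p = 0.418).

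Of the 6 members of activation and the carnitine shuttle, Acsl1, the main long-chain acyl-CoA synthetase of liver, moved with genotype. In WT it ran from 584 to 1345 CPM on NASH (median 767) and from 780 to 1265 on NASH-AA (median 884). FAAH S268D ran from 791 to 1546 on NASH (median 916) and from 785 to 1661 on NASH-AA (median 1310). All 8 FAAH S268D NASH libraries lay above the WT NASH median, and 2 WT NASH libraries lay above the FAAH S268D NASH median.

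The genotype difference of Acsl1 averaged over diets was 0.37 ± 0.12 (SE; limma-voom adjusted p = 0.0316), with 0.35 ± 0.17 on NASH and 0.39 ± 0.17 on NASH-AA, neither past the threshold alone. The averaged diet value was 0.32 ± 0.12 (adjusted p = 0.0793). The genotype call was lost without WT NASH replicate 2, 4 or 8, WT NASH-AA replicate 2, FAAH S268D NASH replicate 2 or 4, or FAAH S268D NASH-AA replicate 6 (adjusted p up to 0.0554), and with library totals as the scaling (0.27, adjusted p = 0.0604). The value was 0.48 among library numbers 1 to 16 and 0.22 among 17 to 32, past the threshold in neither.

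Cpt1a, the gate of mitochondrial fatty acid entry, had values of the opposite sign. WT libraries ran from 582 to 817 CPM on NASH (median 682) and from 504 to 761 on NASH-AA (median 567). FAAH S268D libraries ran from 467 to 811 on NASH (median 629) and from 517 to 592 on NASH-AA (median 554). On NASH-AA only 1 of 8 WT libraries was above the WT NASH median, and 0 of 8 FAAH S268D libraries above the FAAH S268D NASH median. The averaged diet value was -0.19 ± 0.07 (limma-voom adjusted p = 0.0752), which passed without FAAH S268D NASH replicate 3 (-0.21, adjusted p = 0.0283).

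Fabp1 ran from 1616 to 3451 CPM in WT NASH (median 2778) and from 2313 to 3761 in WT NASH-AA (median 3082). FAAH S268D NASH ran higher, from 2150 to 5243 (median 3583), and FAAH S268D NASH-AA from 2280 to 3519 (median 2775). Its genotype value on NASH was 0.43 ± 0.15 (limma-voom adjusted p = 0.0724) and on NASH-AA -0.08. The interaction was -0.50 ± 0.22 (adjusted p = 0.906). Leaving out WT NASH replicate 5, the genotype value on NASH was 0.47 (adjusted p = 0.0383).

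The other members of this role did not pass. Crat had averaged values of -0.40 ± 0.14 for diet (limma-voom adjusted p = 0.0629) and -0.28 for genotype. The inner-membrane carnitine palmitoyltransferase Cpt2 had a genotype value of 0.18 ± 0.08 on NASH (adjusted p = 0.16), and the carnitine carrier Slc25a20 stayed within 0.08 of 0 in all 4 comparisons of 2 groups. Among 24 other genes of fatty acid uptake, activation and carnitine, 2 were higher in FAAH S268D on NASH and 0 lower, where 2.89% of all genes were higher and 6.3% lower. The 2 were the bile acid and very-long-chain synthetase Slc27a5 (0.49 ± 0.10, adjusted p = 0.0054) and the carnitine synthesis enzyme Bbox1 (0.28 ± 0.09, adjusted p = 0.0367).

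The 14 members of mitochondrial beta-oxidation moved by small amounts. On NASH, 12 of 14 had a positive genotype value with a median of 0.13, and 1 passed. Acaa2, the thiolase of the last step, ran from 527 to 723 CPM in WT NASH (median 587) and from 574 to 958 in FAAH S268D NASH (median 715). On NASH-AA it ran from 559 to 716 in WT (median 666) and from 609 to 816 in FAAH S268D (median 696). On NASH, 7 of 8 FAAH S268D libraries lay above the WT median and 1 of 8 WT libraries above the FAAH S268D median.

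Acaa2 was higher in FAAH S268D on NASH by 0.26 ± 0.08 (SE; limma-voom adjusted p = 0.0445) and, averaged over diets, by 0.17 ± 0.06 (adjusted p = 0.0402). On NASH the call was lost without any 1 of 14 libraries: WT NASH replicates 2, 3, 4, 6, 7 and 8, WT NASH-AA replicates 4, 6 and 7, FAAH S268D NASH replicates 1, 2, 3 and 4, and FAAH S268D NASH-AA replicate 2 (adjusted p up to 0.131, log2 values 0.20 to 0.30). The averaged call was lost without any 1 of 17: WT NASH replicates 2, 3, 4, 7 and 8, WT NASH-AA replicates 2, 6, 7 and 8, FAAH S268D NASH replicates 1 to 4, and FAAH S268D NASH-AA replicates 1, 2, 5 and 8 (adjusted p up to 0.0708). With library totals as the scaling the values were 0.11 and 0.08, and neither passed. On NASH the value was 0.40 among library numbers 1 to 16 (adjusted p = 0.072) and 0.04 among 17 to 32 (adjusted p = 0.926).

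Etfb, a subunit of the electron transfer flavoprotein, followed the same direction. It ran from 149 to 214 CPM in WT NASH (median 172) and from 161 to 302 in FAAH S268D NASH (median 219). On NASH-AA it ran from 174 to 230 in WT (median 211) and from 183 to 271 in FAAH S268D (median 227). The averaged genotype difference was 0.23 ± 0.08 (SE; limma-voom adjusted p = 0.0493).

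That call for Etfb was lost without any 1 of 20 libraries: WT NASH replicates 2, 3, 4, 7 and 8, WT NASH-AA replicates 2, 4, 6, 7 and 8, FAAH S268D NASH replicates 1 to 4, and FAAH S268D NASH-AA replicates 1, 2, 4, 5, 6 and 8 (adjusted p up to 0.0948), and with library totals as the scaling (0.12). Among library numbers 1 to 16 it was 0.33 and among 17 to 32 it was 0.06, past the threshold in neither. An overlapping gene model, Gm45233, shares 47.3% of the short sequence words of the Etfb transcripts, so reads could have been split between them. Its partner subunit Etfa, without that overlap, had an averaged genotype value of 0.11 ± 0.05 (adjusted p = 0.134).

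Hadhb, the thiolase subunit of the trifunctional protein, went the other way. WT libraries ran from 165 to 195 CPM on NASH (median 186) and from 140 to 192 on NASH-AA (median 166). FAAH S268D libraries ran from 134 to 219 on NASH (median 175) and from 140 to 172 on NASH-AA (median 152). Above the NASH median of their own genotype were 1 of 8 WT and 0 of 8 FAAH S268D libraries on NASH-AA.

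Averaged over genotypes, Hadhb was lower on NASH-AA by -0.16 ± 0.05 (SE; limma-voom adjusted p = 0.041). The call was lost without any 1 of 16 libraries: WT NASH replicates 1 to 4, WT NASH-AA replicates 4, 5, 7 and 8, FAAH S268D NASH replicates 1, 5, 6 and 8, and FAAH S268D NASH-AA replicates 2, 4, 5 and 7 (adjusted p up to 0.0692). It was -0.17 among library numbers 1 to 16 and -0.13 among 17 to 32, past the threshold in neither. Hadha, which encodes the other subunit and starts from the opposite end of the interval printed above, had an averaged diet value of -0.04 and tracked Hadhb within groups (r = 0.862 over 32 libraries).

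WT NASH replicate 5 held the highest value of its group for 35 of the 41 members. Without it, the genotype comparison on NASH gave 9 members, all higher in FAAH S268D, against 17.8% of all genes: Acaa2, Etfb, Etfa, Acadvl, Hadh, Eci1, Cpt2, Acsl1 and Fabp1, with log2 fold changes between 0.20 and 0.47. The diet comparison in WT then gave 1 member, the very-long-chain dehydrogenase Acadvl (0.19, limma-voom adjusted p = 0.0386), against 14.7% of all genes. In the macrophage markers the same library stood at -0.39 log2 units from the mean of all libraries, while the other 7 of its group stood at 0.38 to 1.23. The part of that difference in the members' values was not tested.

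All 14 mitochondrial members had a negative interaction value, with a median of -0.13 against 0.01 over all genes, that is, a diet difference with a lower value in FAAH S268D than in WT. None passed the test. Over all 41 members the interaction median was -0.27 among library numbers 1 to 16 and 0.05 among 17 to 32, so its sign turned with the range. The members' values rise and fall together within groups, as described below, so the 14 signs are not separate observations. Among 23 other genes of mitochondrial oxidation and ketone bodies tested, 7 were higher and 2 lower in FAAH S268D on NASH, where 2.89% of all genes were higher and 6.3% lower. In the same comparison 18 of 19 hepatocyte markers had positive values (median 0.33) and 13 of 18 macrophage markers were lower, and their part in these values was not tested. Among the higher ones was Hibch of valine breakdown (0.29 ± 0.07, limma-voom adjusted p = 0.0128). Oxct1, which uses ketone bodies and is normally low in hepatocytes (-0.83 ± 0.19, adjusted p = 0.00784), and the thioesterase Acot9 (-0.66 ± 0.18, adjusted p = 0.0176) were lower.

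Of the 7 peroxisomal members, 0 passed in any comparison. Ehhadh, the bifunctional enzyme that PPARalpha agonists raise strongly, ran from 320 to 642 CPM in WT NASH (median 396) and from 288 to 481 in WT NASH-AA (median 365). FAAH S268D ran from 229 to 696 on NASH (median 461) and from 287 to 479 on NASH-AA (median 433). The 4 groups overlapped, and its log2 fold changes lay between -0.12 and 0.14. Acaa1a and Acaa1b, related genes for the peroxisomal thiolase on chromosome 9, have 40% of the Acaa1b sequence words and 16.9% of the Acaa1a words in common with each other, so the division of reads between them is uncertain, and neither passed.

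Outside the members, 6 of 27 other peroxisomal genes tested were higher in FAAH S268D on NASH and 0 lower, where 2.89% of all genes were higher and 6.3% lower. Positive values were held by 26 of the 27, with a median of 0.19. The 6 higher genes included the enoyl-CoA reductase Pecr (0.51 ± 0.14, limma-voom adjusted p = 0.0201), the peroxisome assembly gene Pex16 (0.37 ± 0.10, adjusted p = 0.018), the transporter gene Abcd4 (0.34 ± 0.10, adjusted p = 0.0269) and the phytanic acid enzyme Phyh (0.33 ± 0.10, adjusted p = 0.0278). Of the same 27, 0 passed on NASH-AA, where 0.658% of all genes did. Hepatocyte markers moved in the same direction on NASH (18 of 19 positive, median 0.33), and their part in these values was not tested.

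Among the omega-oxidation members, Cyp4a14 and Cyp4a10 varied widely between libraries of 1 group. Cyp4a14 ran from 56.4 to 581 CPM in WT NASH (median 144) and from 29.6 to 470 in WT NASH-AA (median 142). FAAH S268D ran from 16.2 to 812 on NASH (median 192) and from 47.0 to 573 on NASH-AA (median 250.7). Its highest genotype value was 0.57 on NASH-AA, and it passed in no comparison.

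Cyp4a10 ran from 130 to 519 CPM in WT NASH (median 243), from 117 to 632 in WT NASH-AA (median 234), from 47.9 to 873 in FAAH S268D NASH (median 315) and from 168 to 449 in FAAH S268D NASH-AA (median 355). It also did not pass. Cyp4a31, at a low level, ran from 5.07 to 9.78 CPM in WT NASH (median 6.03) and from 1.65 to 7.06 in WT NASH-AA (median 4.78), with only 1 of 8 of the latter above the median of the former. FAAH S268D held 1.64 to 8.35 on NASH (median 4.45) and 2.33 to 6.38 on NASH-AA (median 4.16). Its diet value in WT was -0.67 ± 0.26 (limma-voom adjusted p = 0.105).

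The 4 Cyp4a members are neighbours of the gene that carries the substitution. Faah lies at chr4:115967145-116017926 on the minus strand (GRCm38), and Cyp4a32, Cyp4a31, Cyp4a10 and Cyp4a14 lie 0.346, 0.388, 0.433 and 0.471 Mb from it. None of the 4 passed in a genotype comparison. Close copies make single values uncertain: 62.8% of the sequence words of Cyp4a32 and 44.9% of those of Cyp4a10 occur in another gene, and 23.4% of those of Cyp4a31 occur in Cyp4a32. For Cyp4a14 the share in any other gene was 2.0%. Aldh3a2, the fatty aldehyde dehydrogenase that also belongs to this role, had an averaged diet value of -0.25 ± 0.11 (limma-voom adjusted p = 0.11).

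Among the 4 acyl-CoA thioesterases, which lie in a cluster on chromosome 12, the members did not go one way. Acot3, a peroxisomal form, ran from 7.21 to 46.1 CPM in WT NASH (median 18.8) and from 4.19 to 119 in WT NASH-AA (median 33.1). FAAH S268D held 2.16 to 74.4 on NASH (median 26.7) and 16.02 to 89.3 on NASH-AA (median 70.0). Acot3 had diet values of 0.41 in WT and 1.12 in FAAH S268D, and Acot4 of 0.25 and 0.46, none past the threshold.

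Acot1, the cytosolic form, ran from 12.5 to 35.2 CPM in WT NASH (median 18.1), from 11.99 to 52.3 in WT NASH-AA (median 17.7), from 9.76 to 48.1 in FAAH S268D NASH (median 21.97) and from 8.72 to 50.7 in FAAH S268D NASH-AA (median 25.4). The mitochondrial Acot2 had diet values of -0.48 in WT and -0.32 in FAAH S268D. Acot1 and Acot2 are near copies (29.9% of Acot2 words occur in Acot1), and a protein-coding gene model, Gm49366, overlaps both Acot3 and Acot4.

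Other known PPARalpha targets outside the members were tested as a list of 32. On NASH, 0 were higher and 3 lower in FAAH S268D, where 2.89% of all genes were higher and 6.3% lower. The 3 were Cyp2j9 (-0.55 ± 0.14, limma-voom adjusted p = 0.0152), the leukotriene-oxidising Cyp4f18 (-0.85 ± 0.27, adjusted p = 0.0431) and Gpt2, the mitochondrial alanine transaminase (-0.30 ± 0.10, adjusted p = 0.0463). The averaged diet comparison gave 1 of the 32 higher and 8 lower, where 4.62% of all genes were higher and 6.28% lower. Among the lower ones were Hilpda, a lipid-droplet protein that blocks lipolysis (-0.41 ± 0.11, adjusted p = 0.0172), the uncoupling protein gene Ucp2 (-0.44 ± 0.13, adjusted p = 0.0278) and the monoacylglycerol lipase gene Mgll (-0.26 ± 0.08, adjusted p = 0.0322). Macrophages also express Cyp4f18 and Ucp2, and 13 of 18 macrophage markers were lower in FAAH S268D on NASH and 9 of 18 lower on NASH-AA in the averaged diet comparison. Their part in these values was not tested.

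Fasting, glucocorticoid and clock output genes, which are known to act on or beside this programme, were read as well. Of 19 tested, 3 were higher and 1 lower on NASH-AA averaged over genotypes, where 4.62% of all genes were higher and 6.28% lower. Cry1 (0.52 ± 0.12, limma-voom adjusted p = 0.00793), Tsc22d3 (0.47 ± 0.12, adjusted p = 0.0148) and Fkbp5 (0.68 ± 0.19, adjusted p = 0.0237) were higher, and Sgk1 (-0.33 ± 0.08, adjusted p = 0.0127) was lower. Tsc22d3 and Fkbp5 are glucocorticoid-induced genes, and Cry1 is a clock gene. When the mice were last fed and when livers were taken were not analysed here.

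Members also varied together between libraries of the same group. After subtracting each group's mean from log2 CPM, the median Pearson r over the 820 pairs of members was 0.539 across 32 libraries, and 763 pairs were above 0. The libraries share depth and tissue composition, so the values are a description, and the same median over other genes was not computed. The closest pairs were Acot3 with Acot4 (r = 0.969), Cyp4a10 with Cyp4a14 (0.935), Eci1 with Ech1 (0.922), Crat with Acot2 (0.918), Hadhb with Decr1 (0.913) and Etfa with Etfb (0.911). Sequence shared with copies or overlapping gene models touches several of these genes, among them Acot3, Cyp4a10, Acot2, Hadhb and Etfb.

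The 3 libraries that stood highest were WT NASH replicate 5, with the highest value of its group in 35 of 41 members, and WT NASH-AA replicate 3 and FAAH S268D NASH replicate 4, with 28 each. Their mean deviations over the members, taken from the mean of all libraries, were 0.42, 0.40 and 0.52 on the log2 scale. At the low end were FAAH S268D NASH replicate 3, lowest of its group in 29 members (mean deviation -0.68), and WT NASH-AA replicate 8 and FAAH S268D NASH-AA replicate 3, lowest in 20 each. Without FAAH S268D NASH replicate 3 the median pairwise r was 0.499.

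**Figure D3:**
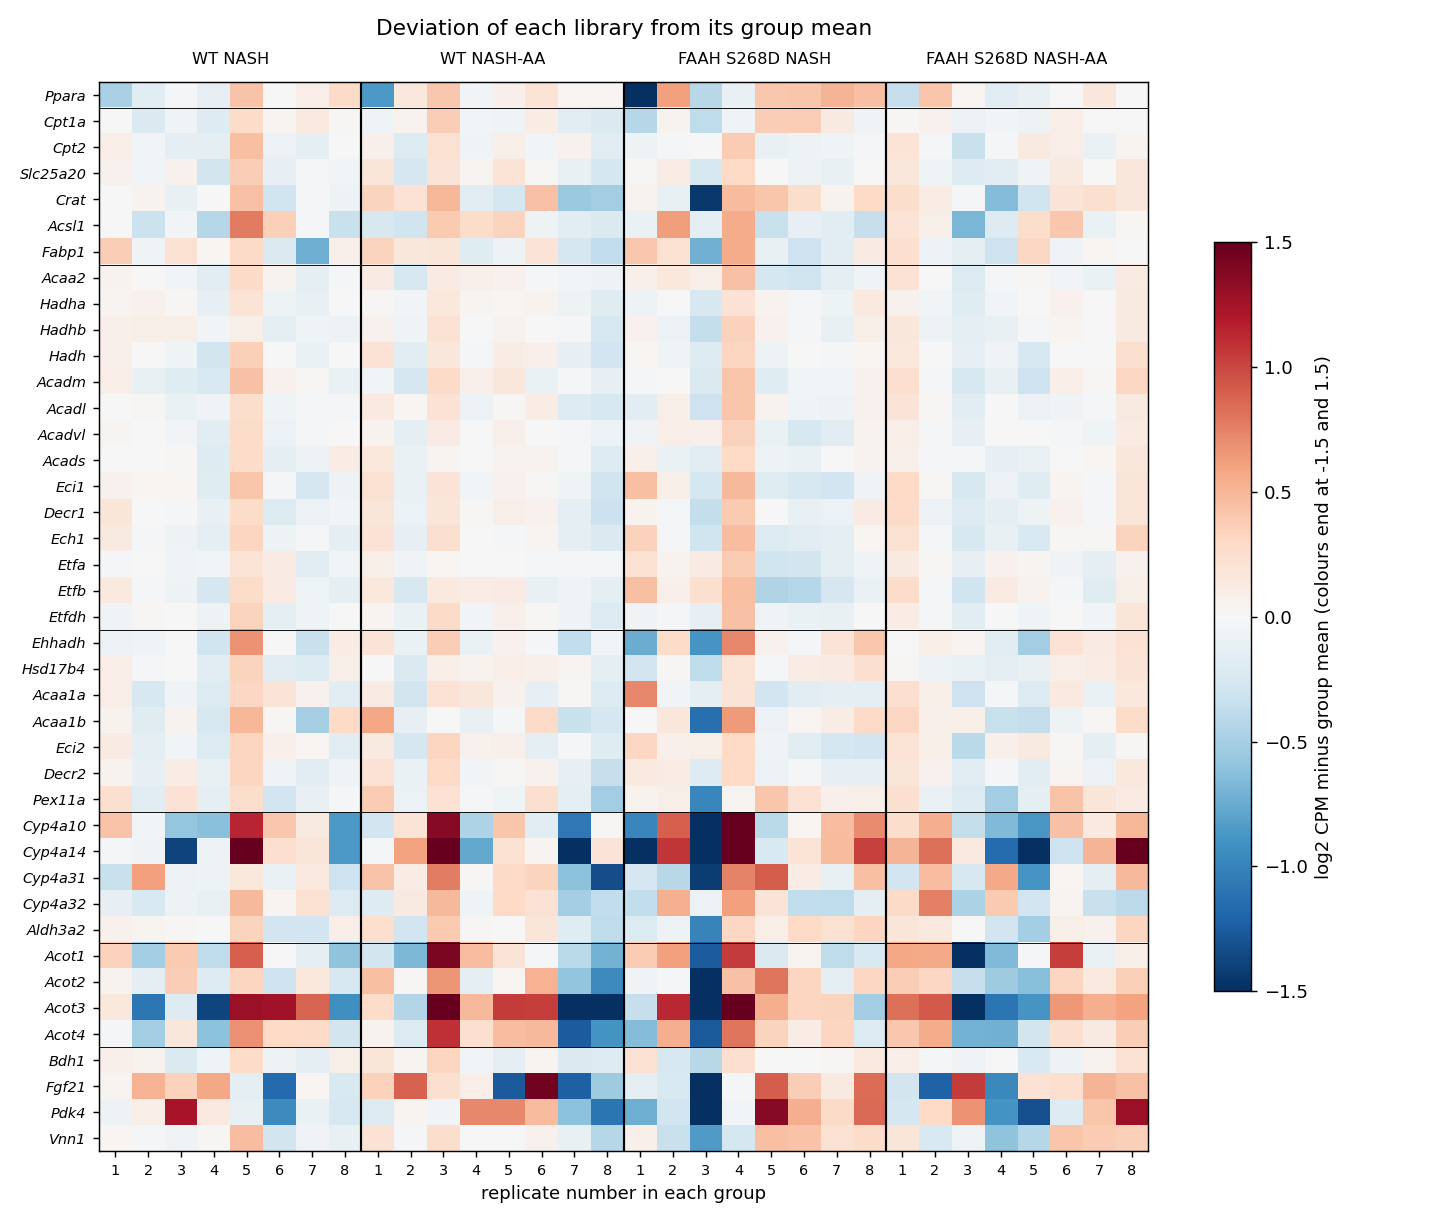
Log2 CPM minus the group mean (colour, red above and blue below) of the 41 members (rows, grouped by role) in the 32 libraries (columns, by group and replicate number). WT NASH replicate 5, WT NASH-AA replicate 3 and FAAH S268D NASH replicate 4 show as red columns and FAAH S268D NASH replicate 3 as a blue one, with the strongest colours in Cyp4a10, Cyp4a14 and the Acot genes, while Ppara is blue in replicate 1 of each group.

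Marker levels beside those libraries were as follows. FAAH S268D NASH replicate 4 had a macrophage marker mean of -1.03 log2 units from the mean of all libraries, the lowest of its group. FAAH S268D NASH replicate 3, at the other end for the members, stood at -0.50, and its hepatocyte markers stood at 0.32, close to the 0.31 of replicate 4. WT NASH-AA replicate 3 stood at -0.14 and 0.06. The part of cell makeup in the members' variation was not tested.

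Members differed in how closely they followed the rest. Decr1, the mitochondrial dienoyl-CoA reductase, had the highest r with the mean of the other members, at 0.928, followed by Slc25a20 at 0.903, and by Hadha and Acadl at 0.901 each. Pdk4 stood at 0.374, Fgf21 at 0.215 and Ppara at 0.08. Fgf21 was nearest to Crat (r = 0.705), Pdk4 (0.593) and Vnn1 (0.591), and its r was below 0 with Etfb (-0.448) and Eci2 (-0.418).

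Ppara's nearest members were Cpt1a (r = 0.665) and Ehhadh (0.534), and its r was below 0 with 16 of the other 40 members, lowest with Etfb (-0.545) and Acaa1a (-0.531). Without the 4 libraries numbered replicate 1, a choice made after these values were seen, Ppara's r with the mean of the others was 0.408, its r was below 0 with 5 members, and its r with Acaa1a was 0.115. The other members were not ranked again without those libraries, which were chosen because Ppara was low in them.

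**Figure D4:**
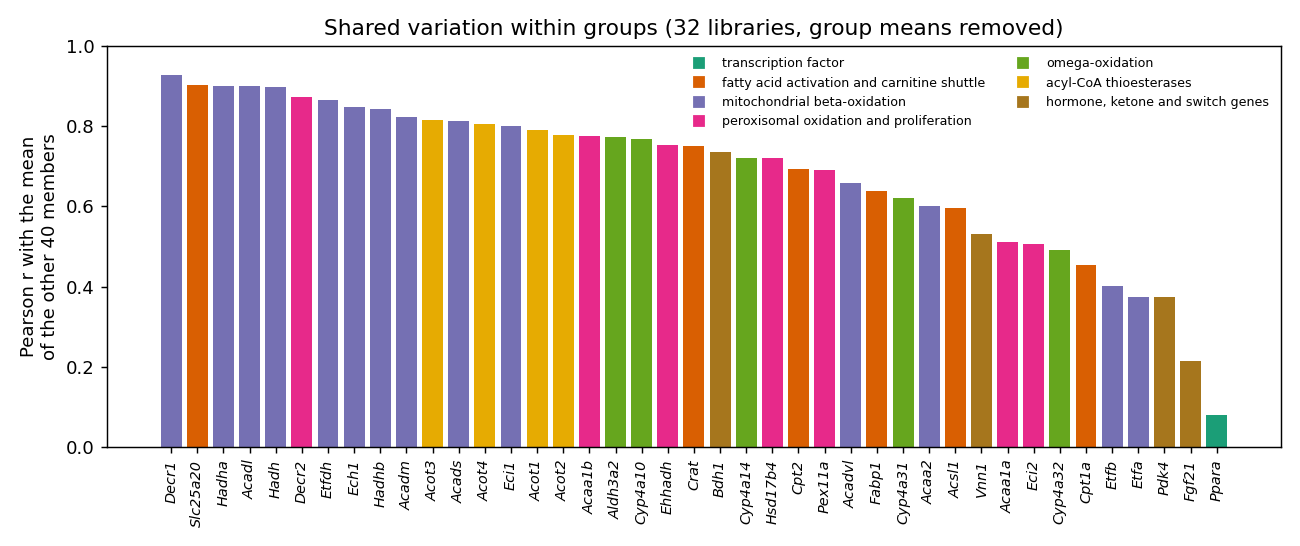
Pearson r (bars) of each member with the mean standardised level of the other 40, over 32 libraries after removing group means, coloured by role. Mitochondrial enzymes lead with Decr1 at 0.928, and Pdk4, Fgf21 and Ppara are at the low end with 0.374, 0.215 and 0.08.

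Outside the members, the 10 genes closest to their shared pattern included Cd1d1, a lipid antigen-presenting molecule (r = 0.866), the monoacylglycerol lipase gene Abhd6 (0.864) and the thiolase gene Acat1 (0.85), over 32 libraries. Pctp (0.847), Mgll (0.839), Clstn3 (0.836), Slc25a10 (0.834) and Trap1 (0.833) were also among them. Each of these 8 had an r of at least 0.787 within library numbers 1 to 16 and within 17 to 32. The lowest were the interleukin receptor gene Il17ra (-0.735), 4933407K13Rik (-0.721), Zc3h7a (-0.704), Nxf1 (-0.694) and Tifa (-0.687).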

How the data were processed

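For 32 polyA libraries of whole liver the authors deposited a merged table of counts, partly not whole, in which many cells had been damaged as text. Because of that damage the deposited values were not taken as plain counts, and a linear model on log2 CPM was used. The submitters' processing notes name STAR 2.7.10, Trim Galore 0.6.7, UMI-tools 1.1.2 and the build GRCm38. How reads were counted, and whether by strand, is not given in the sources used here, so overlapping genes cannot be told apart. Of 1775584 cells, 52450 did not read as plain numbers. Where cells held digit-grouping marks, the marks were removed and the digits after the last mark were read as decimals. Values shown as times or fractions of a day were converted to the numbers they stood for. Of 4823 cells with 2 readings, the reading nearer the depth-scaled gene median was taken. Of these cells, 7 lay in member genes, where the readings differed by at most 0.81 counts. Values were rounded to whole numbers.

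The filter kept genes that reached, in 8 libraries, the CPM worth 10 counts at median depth, and 15 counts over all libraries. CPM was scaled with TMM factors (own code, 30% and 5% trimmed). One mean per group was fitted to all 32 libraries with limma-voom (limma 3.58.1, R 4.3.3, prior count 0.5) and 7 contrasts were tested, with Benjamini-Hochberg adjusted p under 0.05 over 14902 genes as the threshold. Correlations used log2 CPM minus group means. Positions came from GENCODE on GRCm38 and promoters from RefSeq. The fit was tested on simulated data. The 41 members, the gene lists and the rule for named genes (members past the threshold, the 3 largest fold changes of each 2-group comparison and 8 fixed members in full; from lists, up to 4 genes of smallest p; the 10 and 5 genes most and least like the members) were chosen with earlier results of these data known. Alternatives were 2 other scalings, 2 filters, blocks for replicate number and library number, each range of library numbers, leaving out each library, 2 groups alone, quality weights, limma-trend, the other reading, leaving out Cyp4a genes and, chosen after seeing the data, leaving out the 4 libraries numbered replicate 1. Some genes that the rule for named genes would name are not reported here.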

Additional observations from a re-analysis of the deposited data

Results flagged for a closer look

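Of 164 sets of 8 libraries (41 members in 4 groups), 27 had a highest or lowest library unusually far from the nearest other one for the group's range (Dixon's 95% criterion). For normally distributed values, chance gives about 1 in 20, or 8.2. CPM was used here without a log, so the 27 cannot be set against that rate. Members covary, so 1 library can be behind many of the 27.

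WT NASH replicate 5 was the high library for 12 members: Cpt2 (172.6 CPM), Slc25a20 (132.5), Crat (139.8), Ehhadh (642.4), Acaa2 (722.7), Acadm (474.6), Acadl (236.9), Acadvl (411.7), Eci1 (178.1), Etfdh (288.6), Cyp4a14 (581.1) and Vnn1 (160.7). The next Cyp4a14 library of that group held 176 CPM. FAAH S268D NASH replicate 4 was high for 5: Cpt2 (185.4 CPM), Hadh (559.0), Acadm (510.0), Etfdh (331.5) and Cyp4a14 (812.4). WT NASH-AA replicate 3 was high for 4, namely Cyp4a10 (632.4 CPM), Cyp4a14 (470.4), Acot1 (52.28) and Acot3 (118.7). FAAH S268D NASH replicate 3 was low for Crat (33.09 CPM, the next library holding 83.5) and Pex11a (79.99). The remaining ones were Ppara, low in WT NASH-AA replicate 1 (79.81 CPM, next 142), Acaa1a, high in FAAH S268D NASH replicate 1 (484.1), Cyp4a31, high in WT NASH replicate 2 (9.781), and Pdk4, high in WT NASH replicate 3 (30.31, next 14.2).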

How the results depend on the processing

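The number of members past the threshold changed under these settings, against 0 (diet in WT), 0 (diet in FAAH S268D), 1 (genotype on NASH), 2 (diet, averaged) and 5 (genotype, averaged). Library totals as the scaling gave 1 for diet in WT, 2 for genotype on NASH (Hadha and Hadhb) and 6 for diet averaged, all lower, where 11.3%, 16.2% and 12.4% of all genes passed and the median of all genes stood at -0.12, -0.14 and -0.07. Without a filter, genotype on NASH gave 0, diet averaged 1 and genotype averaged 2, against 3.57%, 3.44% and 6.6% of all genes. The replicate block gave 0, 1 and 3 for the same comparisons, against 6.45%, 7.19% and 12.9% of all genes. It lost Acaa2 in both genotype comparisons, Hadhb, and Fgf21 by genotype (-0.89, adjusted p = 0.0874, limma-voom). The library number block also gave 0, 1 and 3, against 8.48%, 9.17% and 16.7%. Library numbers 1 to 16 alone gave 0, 0 and 2, against 6.35%, 0.0913% and 5.79% of all genes. Numbers 17 to 32 alone gave 1 for diet in WT, 0 for genotype on NASH, 5 for diet averaged and 0 for genotype averaged. The shares of all genes there were 1.17%, 0.105%, 13.8% and 0.363%. Fitting 2 groups alone gave 0 for genotype on NASH, against 0.465% of all genes. Quality weights gave 7 for diet in WT (6 higher), 3 for diet in FAAH S268D (all lower), 0 for genotype on NASH and 14 for diet averaged (7 higher and 7 lower), where 25.2%, 7.13%, 13.2% and 34.1% of all genes passed. Limma-trend gave 1 for diet in FAAH S268D (Fgf21), 0 for genotype on NASH and 4 for genotype averaged. Of all genes, 0.262%, 10.2% and 16.9% passed with it. Without the 4 libraries numbered replicate 1, genotype on NASH gave 0, diet averaged 3 and genotype averaged 0. Of all genes, 8.27%, 10.1% and 14.7% passed there. Leaving out 1 library gave 0 to 1 for diet in WT, 0 to 2 for diet in FAAH S268D, 0 to 9 for genotype on NASH, 0 to 0 for genotype on NASH-AA and for the interaction, 1 to 8 for diet averaged and 0 to 7 for genotype averaged. Over all genes the numbers past the threshold in these fits were, in the same order, 64 to 2191, 6 to 365, 494 to 2644, 66 to 186, 0 to 0, 1001 to 2700 and 1921 to 3321. The cause of these changes was not tested. Fgf21 was lower on NASH-AA, averaged over genotypes, in every alternative run (-1.44 to -1.18), and missed the threshold only in library numbers 1 to 16 alone (-1.22, adjusted p = 0.357, limma-voom). The replicate numbers are names that the groups share: same-numbered libraries had mean correlations of their deviations between -0.087 and 0.183, and only replicate 1 had 5 of 6 pairs above 0.1, so no pairing is taken from them. Depth limits Fgf21, Pdk4 and Cyp4a31 most, with medians of 4.31, 9.15 and 5.11 CPM.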
